A study of Mus musculus with 7 samples.

Results

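miR-221 and miR-222 are a pair of neighbouring microRNAs, and each hairpin gives a 5p and a 3p arm. The 4 mature miRNAs, mmu-miR-221-3p, mmu-miR-221-5p, mmu-miR-222-3p and mmu-miR-222-5p, were taken by name from the 1966 mature miRNAs counted in each library, by a rule that uses no measured value. Small RNA libraries came from hepatocytes of the mouse, freed from liver by perfusion with collagenase and enriched by slow centrifugation. WT gave 3 libraries and ALAS12-KO gave 4, and all 7 carry the treatment label TMX. The series describes the mutant hepatocytes as ALAS1/2 mutant; ALAS is 5-aminolevulinate synthase, the first enzyme of heme synthesis, and the title names ALAS1 as an inhibitor of small RNA-mediated silencing. The sources used here give no meaning for TMX, no promoter or recombinase behind the mutation, and no strain, sex or age of the mice. Nothing in the labels ties each replicate to an animal of its own, so the p-values cover only the spread between these samples, and this spread may be technical.

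As background, a miRNA guides Argonaute proteins to messenger RNAs that pair with bases 2 to 8 of the miRNA, its seed, and so lowers their output. miR-221 and miR-222 are transcribed from 1 locus and are best known for repressing Cdkn1b, the cell cycle inhibitor p27, and Kit, a receptor tyrosine kinase. They are abundant in endothelial and smooth muscle cells, and in liver they are known for higher levels in hepatocellular carcinoma and in activated stellate cells.

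The sequences show what the 3p arms share and where they part. They are printed 5′ to 3′ from the RefSeq table for GRCm38.p6, which held 3 of the 4 arms, with the seed in capitals.
miR-221-3p: aGCUACAUugucugcuggguuuc
miR-222-3p: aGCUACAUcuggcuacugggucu
miR-221-5p: aCCUGGCAuacaauguagauuucugu
The 3p arms are identical over their first 8 bases, and so have the same seed. Compared base by base without gaps, 11 of their 23 bases are the same. Allowing gaps, each is the other's closest relative among 1678 mature sequences, at 5 edits, so a read of full length tells them apart. The closest sequence to miR-221-5p, miR-6335, is 8 edits away, and no other miRNA in the table has its seed. One further miRNA in the table shares the 3p seed, miR-1928 of chromosome 1, and it had 0 reads in each of the 7 libraries, which allows up to 0.389 reads in 1000000 in the shallowest of them.

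Both hairpins lie on the minus strand of chromosome X in GRCm38.p6, Mir221 at chrX:19146294-19146388 and Mir222 at chrX:19146893-19146971. They are separated by 504 bases, and Mir222 comes first in the direction of transcription. No other annotated gene overlaps them, so both are intergenic in this annotation. The nearest gene is Gm14636, a long noncoding RNA gene 9499 bases beyond Mir222. The hairpins are printed with the arms of the table in capitals, to show that the 3p arm has the same place in each.
Mir221: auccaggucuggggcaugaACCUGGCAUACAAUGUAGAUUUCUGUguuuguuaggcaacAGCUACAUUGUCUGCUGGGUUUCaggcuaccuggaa
Mir222: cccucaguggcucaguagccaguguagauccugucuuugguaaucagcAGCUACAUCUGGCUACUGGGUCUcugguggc

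The libraries held 7719180 to 21962191 miRNA reads, and 7 hepatocyte markers, led by miR-122-5p, the defining miRNA of hepatocytes, took 63.4% to 66.2% of them in WT and 60.7% to 69.3% in ALAS12-KO. Levels are given as CPM, the share of a library's summed miRNA reads scaled to 1000000 reads. ALAS12-KO replicate 1 stood apart in markers of other liver cells. Its endothelial, leukocyte and mesenchymal markers summed to 1.10%, 0.230% and 0.169% of miRNA reads, below each of the other 6 libraries. Differences between genotypes were tested with edgeR after scaling by TMM, a factor per library that sets the bulk of miRNAs level. These factors ran from 0.806 in ALAS12-KO replicate 1 to 1.13 in WT replicate 3, so the scale bears on every level below, and levels are given in CPM first and then scaled by TMM.

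The 4 arms differed widely in abundance, and miR-221-3p held almost all reads of the locus. It took 90.2% to 92.1% of the reads of the 4 arms in each library. miR-222-3p took 6.13% to 7.30%, miR-221-5p 1.49% to 2.09% and miR-222-5p 0.296% to 0.747%. By mean CPM over the 7 libraries, miR-221-3p ranked 61 of 1966, miR-222-3p 147, miR-221-5p 211 and miR-222-5p 308. This order was the same in all 7 libraries, and no range of one arm met that of another. The mature forms are 23 to 26 bases long where the table gives them, and read counts of different miRNAs also depend on how well each sequence is ligated, so the order is one of reads. The 4 arms together made up 0.0525% ± 0.00425 (SD, n = 3) of a WT library's miRNA reads and 0.0621% ± 0.0217 (SD, n = 4) of an ALAS12-KO library's, with a two-sided exact permutation p of 0.457 over 35 splits, of which the smallest possible is 0.0286. The difference of 0.00958 percentage points was 0.00198 without ALAS12-KO replicate 3 and 0.00484 without replicate 4, and it was 0.0149 without replicate 1 and 0.0166 without replicate 2.

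miR-221-3p, the main product of the locus, stood at 504, 487 and 433 CPM in WT replicates 1 to 3. In ALAS12-KO replicates 1 to 4 it stood at 416, 371, 772 and 702 CPM. The WT libraries lay close together. The ALAS12-KO libraries lay on either side of them, with replicates 1 and 2 below every WT library and replicates 3 and 4 above every WT library. The means were 474 ± 37.3 CPM (SD, n = 3) and 565 ± 201 CPM (SD, n = 4). TMM-scaled levels were 465, 479 and 384 CPM in WT and 516, 423, 697 and 684 CPM in ALAS12-KO, so on that scale ALAS12-KO replicate 1 lay above the WT libraries and replicate 2 among them. The groups overlapped on both scales.

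miR-222-3p, which has the same seed, followed the same order of libraries. It stood at 40.8, 37.7 and 32.9 CPM in WT and at 32.0, 28.9, 56.8 and 46.8 CPM in ALAS12-KO, on the basis of 254 to 971 reads. In CPM, ALAS12-KO replicates 1 and 2 were again below, and 3 and 4 above, every WT library. TMM-scaled levels were 37.6, 37.2 and 29.2 CPM in WT and 39.7, 32.9, 51.3 and 45.5 CPM in ALAS12-KO, so there replicate 1 was also above every WT library and replicate 2 lay among them. The means were 37.2 ± 3.99 CPM (SD, n = 3) and 41.1 ± 13.0 CPM (SD, n = 4).

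miR-221-5p, the minor arm of its hairpin, stood at 11.2, 11.2 and 8.94 CPM in WT and at 9.19, 7.63, 17.7 and 11.4 CPM in ALAS12-KO, on the basis of 69 to 302 reads. ALAS12-KO replicate 3 was well above the rest, and replicate 4 was next to WT replicates 1 and 2. miR-222-5p, the rarest arm, had a different order, at 2.75, 3.37 and 2.98 CPM in WT and 3.19, 3.07, 2.52 and 2.38 CPM in ALAS12-KO, on the basis of 23 to 74 reads. Here ALAS12-KO replicates 3 and 4, the highest for miR-221-3p and miR-222-3p, were the lowest of all 7 libraries. With so few reads, counting error alone can change this order, on either scale. With TMM scaling ALAS12-KO replicate 1 stood at 11.4 CPM for miR-221-5p, above the WT libraries at 7.93 to 11.1 CPM. For miR-222-5p the scaled levels were 2.53, 3.32 and 2.64 CPM in WT and 3.95, 3.49, 2.27 and 2.32 CPM in ALAS12-KO, with replicates 1 and 2 above and 3 and 4 below every WT library.

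**Figure D1:**
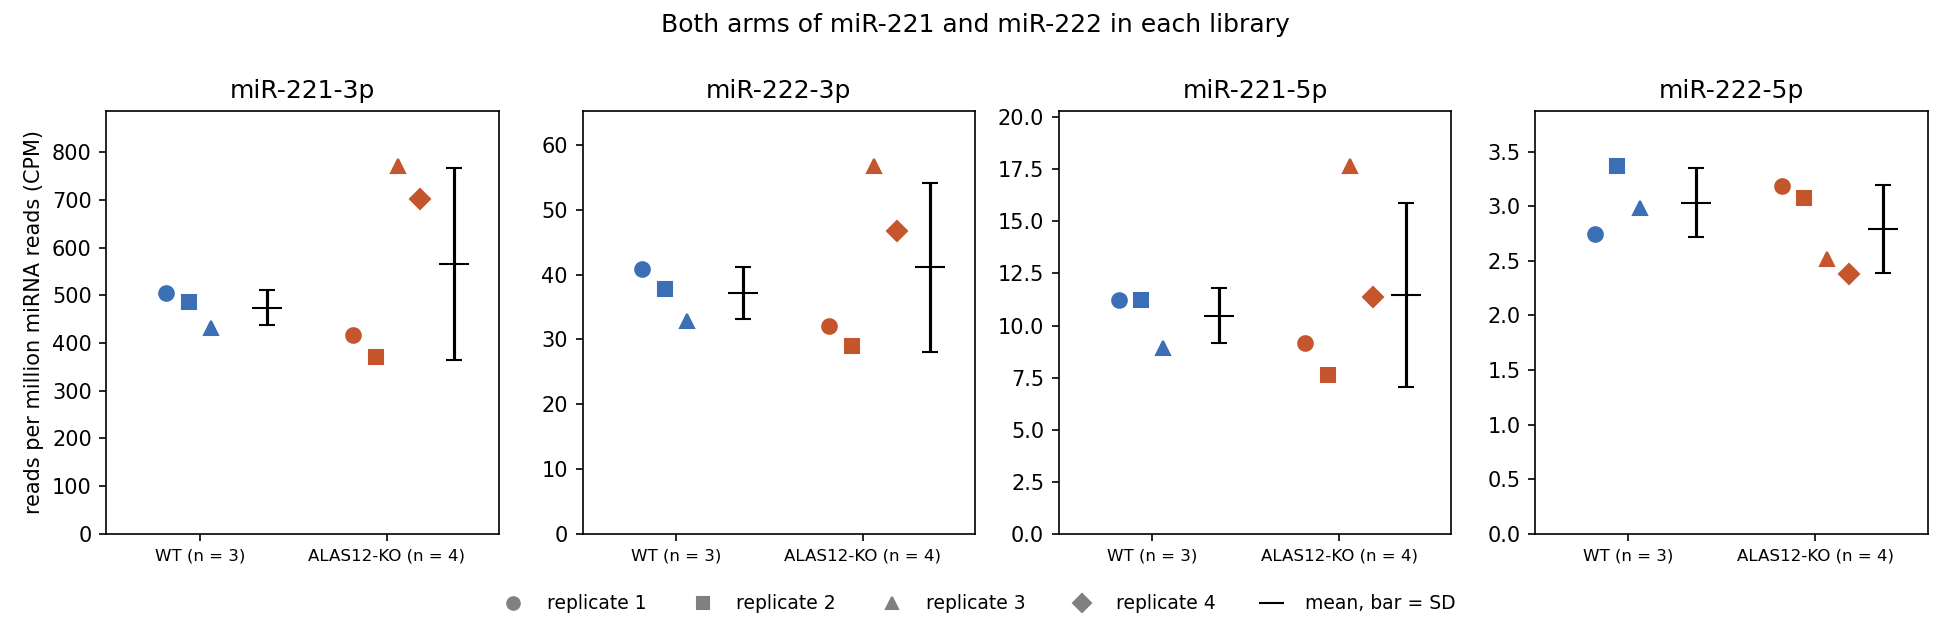
Level of each arm in every library, in CPM on a linear axis from 0, with replicates as symbols and the group mean and SD beside them. For miR-221-3p the 3 WT libraries lie between 433 and 504 CPM, with 2 ALAS12-KO libraries below them and 2 above. For miR-222-5p ALAS12-KO replicates 3 and 4 are the lowest of all 7, an order that rests on 23 to 74 reads per library.

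None of the 4 arms passed the edgeR threshold between the genotypes. The log2 fold change of ALAS12-KO over WT was 0.39 ± 0.20 (SE) for miR-221-3p, with an unadjusted edgeR p of 0.0893 and an adjusted p of 0.316. It was 0.29 ± 0.21 for miR-222-3p (edgeR adjusted p = 0.439), 0.27 ± 0.25 for miR-221-5p (0.564) and 0.06 ± 0.29 for miR-222-5p (0.922). All 4 passed the filter on low counts. The 95% interval of the fold reached from 0.950 to 1.81 for miR-221-3p and from 0.883 to 1.69 for miR-222-3p, so changes of up to those sizes in either direction were not resolved with these libraries. For the 5p arms the intervals were wider, 0.810 to 1.78 for miR-221-5p and 0.659 to 1.65 for miR-222-5p.

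Over all 450 tested miRNAs edgeR called 0 (0%), with 84 (18.7%) at an unadjusted p under 0.05, and the groups did not overlap in CPM for 93 (20.7%). Of the 4 arms, 0 had an unadjusted p under 0.05 and all 4 overlapped. DESeq2 called 21 miRNAs (4.67%) and limma-voom 0, and neither called any of the 4 arms; the DESeq2 adjusted p ran from 0.354 for miR-221-3p to 0.986 for miR-222-5p. Over the tested miRNAs the log2 fold change had a median of 0.06 with TMM and −0.12 with library totals alone. With library totals the log2 fold changes of the arms were 0.25 for miR-221-3p, 0.15 for miR-222-3p, 0.13 for miR-221-5p and −0.13 for miR-222-5p, the last of which changed sign. Without ALAS12-KO replicate 3 the value was 0.22 for miR-221-3p and 0.01 for miR-221-5p.

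**Figure D2:**
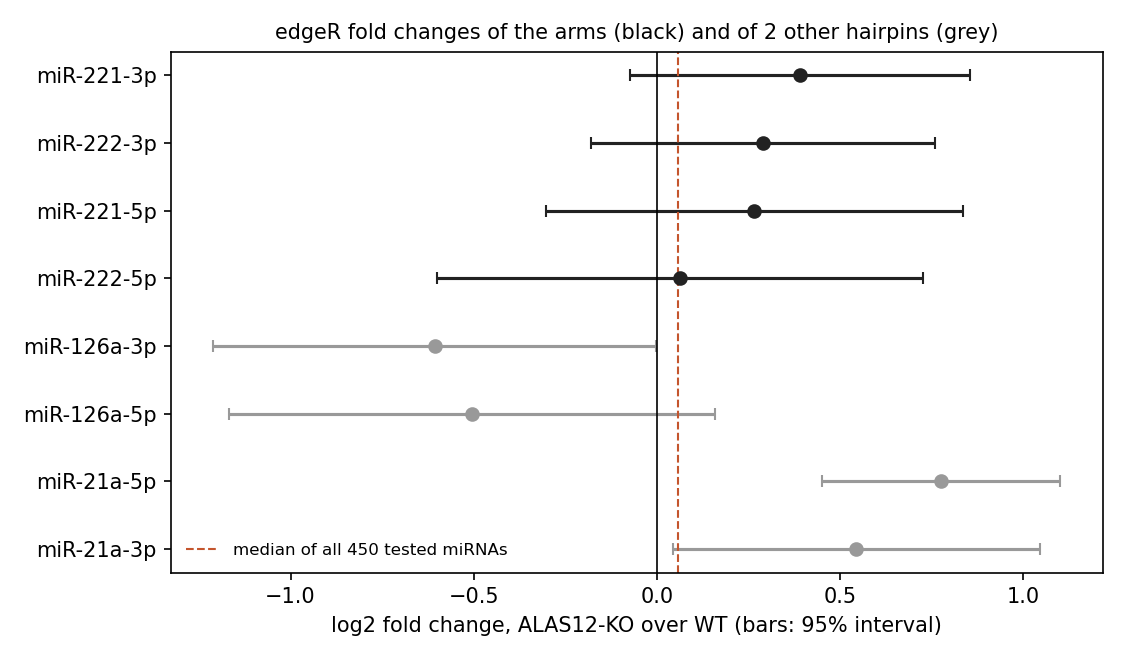
log2 fold change of ALAS12-KO over WT from edgeR with unadjusted 95% intervals, for the 4 arms in black and the arms of miR-126a and miR-21a in grey; the dashed line is the median of all tested miRNAs. The intervals of all 4 arms of the locus include 0.

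The 3p arms kept a nearly fixed ratio to each other. There were 8.10, 7.76 and 7.61 reads of miR-222-3p per 100 reads of miR-221-3p in WT replicates 1 to 3, and 7.70, 7.79, 7.36 and 6.66 in ALAS12-KO replicates 1 to 4. The 7 values thus lay within a narrow range while the level of miR-221-3p itself ran from 371 to 772 CPM, and ALAS12-KO replicate 4 was the lowest. The mean log2 ratio was −3.68 ± 0.05 (SD) over the WT libraries and −3.76 ± 0.10 (SD) over the ALAS12-KO libraries, a difference of −0.09 with an exact permutation p of 0.257 (0.514 adjusted over the 2 ratios between the hairpins). The 5p arms varied more. Per 100 reads of miR-221-5p there were 24.4, 30.0 and 33.3 reads of miR-222-5p in WT, and 34.7, 40.3, 14.2 and 21.0 in ALAS12-KO. The ALAS12-KO replicates covered a wider range than WT, with replicates 3 and 4 below every WT library and replicates 1 and 2 above, and the mean log2 ratios differed by −0.19 (exact permutation p = 0.714, adjusted 0.714).

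The arm ratio is a measure within a hairpin that does not depend on how libraries are scaled, and the 3p arm dominated both hairpins. The miR-221-5p arm made up 2.18%, 2.26% and 2.02% of the reads of its hairpin in WT, and 2.16%, 2.01%, 2.24% and 1.59% in ALAS12-KO. Of these 7 shares, 6 lay close together and ALAS12-KO replicate 4 was lower, with an exact (Clopper-Pearson) 95% interval of 1.37% to 1.83%. That interval lies below those of WT replicate 1 (1.88% to 2.52%), WT replicate 2 (1.99% to 2.56%) and ALAS12-KO replicate 3 (2.00% to 2.50%). It overlaps those of WT replicate 3 (1.58% to 2.56%), ALAS12-KO replicate 1 (1.80% to 2.57%) and ALAS12-KO replicate 2 (1.59% to 2.51%). These are reads and not molecules counted by identifiers, so intervals and limits from counts cover counting error only.

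The miR-222-5p arm made up 6.30%, 8.19% and 8.30% of the reads of its hairpin in WT, and 9.05%, 9.60%, 4.24% and 4.84% in ALAS12-KO. ALAS12-KO replicates 1 and 2 were above every WT library, and replicates 3 and 4 below. The 95% interval was 3.09% to 5.67% in replicate 3 and 3.47% to 6.56% in replicate 4, below those of replicate 1 (6.60% to 12.0%) and replicate 2 (6.62% to 13.3%). The WT intervals, 4.62% to 8.37%, 6.49% to 10.2% and 5.34% to 12.2% for replicates 1 to 3, overlapped one another. Those of ALAS12-KO replicates 1, 2 and 4 overlapped every WT interval. That of ALAS12-KO replicate 3 lay below that of WT replicate 2 and overlapped those of WT replicates 1 and 3. The 5p arm had 42, 31, 43 and 39 reads in the ALAS12-KO libraries and a level of 2.38 to 3.19 CPM, while the 3p arm of the same hairpin ran from 28.9 to 56.8 CPM. The intervals do not cover the spread between libraries.

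Between the genotypes neither arm ratio passed the test. The mean log2 ratio of the 5p to the 3p arm was −5.50 ± 0.08 (SD) over the 3 WT libraries and −5.62 ± 0.23 (SD) over the 4 ALAS12-KO libraries for miR-221, a difference of −0.12 ± 0.16 (SE; limma adjusted p = 0.787). For miR-222 it was −3.60 ± 0.24 (SD, n = 3) and −3.82 ± 0.65 (SD, n = 4), a difference of −0.22 ± 0.36 (SE; limma adjusted p = 0.839). limma called 0 of 130 hairpins (0%), with 7 at an unadjusted p under 0.05, and the groups did not overlap for 13 (10.0%); both hairpins of the locus overlapped. Among the 130 hairpins, 56 had more 3p than 5p reads, and miR-221 and miR-222 had the ratios that ranked 19 and 25 from the most 3p-sided. Without ALAS12-KO replicate 3 the difference for miR-222 was −0.0048, and without replicate 4 it was −0.01 for miR-221 and −0.07 for miR-222.

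**Figure D3:**
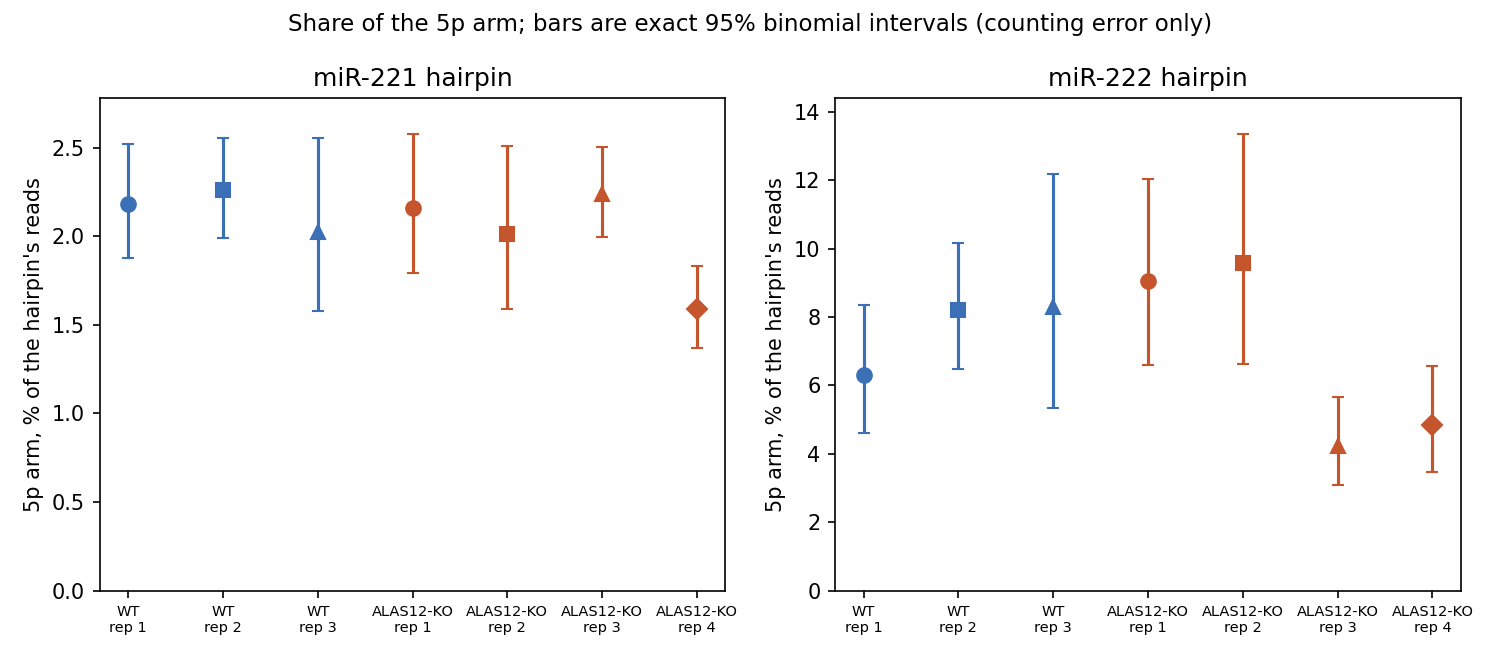
Share of each hairpin's reads that came from the 5p arm in every library, in percent on a linear axis from 0, with exact 95% binomial intervals for counting error; WT in blue and ALAS12-KO in red. For miR-222 the ALAS12-KO replicates 3 and 4 lie at 4.24% and 4.84%, with intervals that do not meet those of replicates 1 and 2. Against WT, only the intervals of ALAS12-KO replicate 3 and WT replicate 2 do not meet.

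The spread within each group is given as the SD of log2(CPM + 1), a description with no test. The added 1 lowers this SD for miRNAs at a few CPM, such as miR-222-5p. The SD of miR-221-3p was 0.12 in WT, where the median over all 450 tested miRNAs was 0.18, and 0.53 in ALAS12-KO, where that median was 0.31. For miR-222-3p it was 0.15 and 0.45, for miR-221-5p 0.17 and 0.48, and for miR-222-5p 0.11 and 0.15, the last below both medians. With TMM scaling it was 0.17 and 0.35 for miR-221-3p, against medians of 0.18 and 0.32, so there the spread in ALAS12-KO was close to that of a typical miRNA. For miR-222-3p it was 0.20 and 0.27, for miR-221-5p 0.23 and 0.33, and for miR-222-5p 0.16 and 0.30.

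As shares of miRNA reads, endothelial, mesenchymal and leukocyte markers were lower in ALAS12-KO replicates 1 and 2 than in 3 and 4. So were the 3p arms in CPM. Endothelial markers, the arms of miR-126a, summed to 1.10%, 2.55%, 3.65% and 2.96% of miRNA reads in ALAS12-KO replicates 1 to 4, and to 3.79%, 3.56% and 5.25% in WT replicates 1 to 3. ALAS12-KO replicates 1 and 2, the lower ones for miR-221-3p, were also lower in these markers than replicates 3 and 4. In WT the library lowest in miR-221-3p, replicate 3, had the most. With TMM scaling, miR-126a-3p stood at 9296, 19828, 21590 and 19107 CPM in ALAS12-KO replicates 1 to 4. On that scale replicate 2 was above replicate 4. Mesenchymal markers, of stellate and smooth muscle cells, summed to 0.169%, 0.378%, 0.620% and 0.448% in ALAS12-KO and to 0.450% to 0.756% in WT. Leukocyte markers summed to 0.230%, 0.499%, 0.740% and 0.644% in ALAS12-KO and to 0.588% to 0.778% in WT. Cholangiocyte markers did not keep this order, at 54.4, 87.3, 105 and 75.9 CPM in ALAS12-KO replicates 1 to 4. Red cell markers did, at 9.11, 13.7, 15.4 and 20.3 CPM. None of the endothelial, mesenchymal and leukocyte markers was at 0 in all libraries. Their part in the levels of miR-221 and miR-222 was not tested, and in bulk samples fewer cells of a type and less RNA per cell cannot be told apart.

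By the edgeR fit, 0 members of these marker lists passed the threshold. The log2 fold changes were negative for 2 of 2 endothelial markers (median −0.56, 1 at an unadjusted p under 0.05), 6 of 6 leukocyte markers (median −0.29, 1) and 5 of 6 mesenchymal markers (median −0.48, 1). They were also negative for 5 of 5 cholangiocyte markers (median −1.27, 3) and 4 of 4 red cell markers (median −0.51, 2), and positive for 7 of 7 hepatocyte markers (median 0.34, 1). Of all 450 tested miRNAs, 252 were positive and 84 (18.7%) had an unadjusted edgeR p under 0.05. The leukocyte (16.7%), mesenchymal (16.7%) and hepatocyte (14.3%) shares at such a p were below that of all tested miRNAs. The endothelial, cholangiocyte and red cell shares were above it. The values for the most abundant marker of each list were −0.61 ± 0.27 for miR-126a-3p, −0.17 ± 0.27 for miR-142a-3p, −0.46 ± 0.30 for miR-143-3p, −1.31 ± 0.27 for miR-200a-3p, −0.34 ± 0.31 for miR-451a and 0.20 ± 0.16 for miR-122-5p. DESeq2 called 3 of the cholangiocyte markers, miR-200a-3p, miR-200b-3p and miR-429-3p, and 1 of the red cell markers, miR-144-3p, beside 4.67% of all tested miRNAs.

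The 3p arms were set against miR-126a-3p, a miRNA of endothelium, within each library, a ratio free of scaling. Per 100 reads of miR-126a-3p there were 1.94, 2.00 and 1.21 reads of miR-221-3p in WT, and 5.55, 2.13, 3.23 and 3.58 in ALAS12-KO. Every ALAS12-KO library was above every WT library, with replicate 2 close to WT replicates 1 and 2. The mean log2 ratio was −5.90 ± 0.41 (SD) over the WT libraries and −4.87 ± 0.57 (SD) over the ALAS12-KO libraries, a difference of 1.03. For miR-222-3p the difference was 0.94, also without overlap. The exact permutation p was 0.0571 for each, and 0.0571 after adjustment over the 4 ratios of this kind, so neither passed. Without ALAS12-KO replicate 1 the differences were 0.80 and 0.69.

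Against miR-21a-5p, a miRNA of injury and growth in liver, the 3p arms lay the other way. There were 1.20, 1.37 and 1.12 reads of miR-221-3p per 100 reads of miR-21a-5p in WT, and 0.804, 0.883, 0.998 and 1.06 in ALAS12-KO. Every ALAS12-KO library was below every WT library, and the mean log2 ratios differed by −0.40, with an exact permutation p of 0.0571 (adjusted 0.0571). For miR-222-3p the difference was −0.48, with the smallest possible exact permutation p of 0.0286 and an adjusted value of 0.0571, so this did not pass either. The comparators' own log2 fold changes were −0.61 ± 0.27 for miR-126a-3p (edgeR adjusted p = 0.264) and 0.78 ± 0.14 for miR-21a-5p (0.103), with the arms of the locus in between. In CPM and after TMM scaling, miR-126a-3p was lower and miR-21a-5p higher in every ALAS12-KO library than in every WT library, while both 3p arms overlapped, so the comparators were already separated between the groups.

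**Figure D4:**
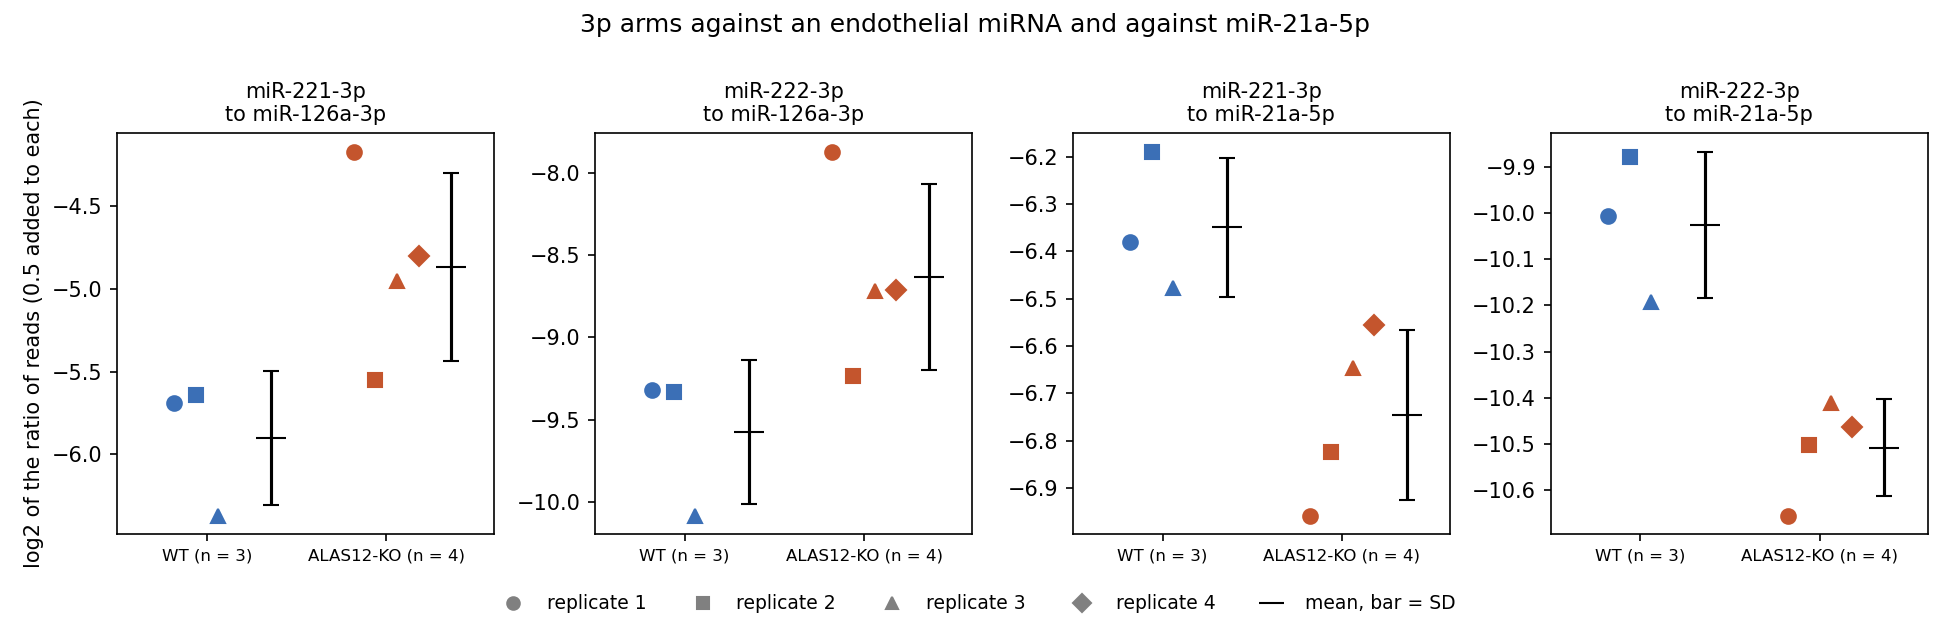
log2 ratio of the reads of miR-221-3p and miR-222-3p to those of miR-126a-3p and of miR-21a-5p in every library, with the group mean and SD; the vertical axes differ and do not start at 0. ALAS12-KO lies above WT in the ratios to miR-126a-3p and below WT in those to miR-21a-5p, without overlap in all 4 panels; the comparators by themselves did not overlap either.

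The related miRNAs were read from 3 lists. Of the growth and injury miRNAs, 0 of 10 passed the edgeR threshold and 3 had an unadjusted p under 0.05, all higher in ALAS12-KO, with a median log2 fold change of 0.33; over all tested miRNAs 18.7% had such a p, 46 of the 84 higher. These were miR-34a-5p, a target of p53, at 1.10 ± 0.19, and miR-21a-5p and miR-21a-3p at 0.78 ± 0.14 and 0.54 ± 0.22. miR-146a-5p, induced by NF-kB, had −0.52 ± 0.29. DESeq2 called miR-34a-5p and miR-21a-5p, beside 4.67% of all tested miRNAs. With library totals edgeR called 1 of the 10, beside 2 of all 450 tested miRNAs. Of the vascular miRNAs, 0 of 17 passed and 3 (17.6%, near the 18.7% of all tested miRNAs) had an unadjusted p under 0.05, miR-23b-3p (0.36 ± 0.11) and miR-296-5p (1.18 ± 0.51) higher and miR-126a-3p lower, with a median of −0.18. DESeq2 called 1 of the 17, miR-23b-3p, near its 4.67% of all tested miRNAs. The other abundant members were miR-126a-5p at −0.51 ± 0.29, miR-27b-3p at 0.09 ± 0.14 and miR-19b-3p at −0.25 ± 0.15.

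Of the 146 other miRNAs whose hairpins lie on chromosome X alone, 40 were tested and edgeR and DESeq2 called 0. Of the 40, 23 had a positive and 17 a negative log2 fold change, with a median of 0.04 beside 0.06 for all tested miRNAs, and 4 (10.0%, below the 18.7% of all) had an unadjusted p under 0.05. The most abundant were miR-223-3p, a myeloid miRNA, at −0.41 ± 0.25, miR-322-5p of the miR-15/16 family at −0.54 ± 0.30, miR-98-5p of the let-7 family at 0.19 ± 0.15 and miR-361-5p at 0.37 ± 0.16. The X-linked miRNAs thus had members on both sides of 0, as did all tested miRNAs.

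The miRNAs whose levels over the 7 libraries were most like those of the 3p arms were the same for both arms, apart from the arms themselves. Likeness was Pearson's r of log2(CPM + 1) among miRNAs with a mean CPM of at least 10. For miR-221-3p it was 1.00 with miR-92a-3p, 0.99 with miR-1843b-5p, 0.99 with miR-1839-5p, 0.98 with miR-222-3p and 0.97 with miR-484. For miR-222-3p it was 0.98 with miR-484, 0.98 with miR-92a-3p, 0.98 with miR-221-3p, 0.97 with miR-1843b-5p and 0.96 with miR-1839-5p. All of these put the 7 libraries in the same order. Leaving out the 2 libraries farthest from the median, which were ALAS12-KO replicates 3 and 4 for miR-221-3p and 2 and 3 for miR-222-3p, left r between 0.92 and 0.99. miR-92a-3p ran from 286 to 772 CPM and had a log2 fold change of 0.47 ± 0.27 (edgeR adjusted p = 0.344). These values describe 7 libraries that share depth, scaling and cell makeup across all miRNAs, and the 5 were picked as the highest. By the same measure r was 0.25 between miR-221-3p and miR-126a-3p and 0.80 between miR-221-3p and miR-21a-5p. With TMM-scaled CPM the value for miR-126a-3p turned to −0.30, and that for miR-21a-5p was 0.81.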

How the data were processed

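The authors deposited 1 table for each library with the read count of every mature miRNA name; the values are whole and were not normalised. The submitters' processing notes list Cutadapt, limma, mm10 and hg38 without a role, and give neither the aligner nor the counter. The 5 summary lines at the foot of each table entered neither library sizes nor tests. Reads aligned elsewhere than a miRNA were 50.9% to 73.7% of all reads, and unaligned reads 4.54% to 8.00%. No 2 libraries of a group agreed within sampling noise (chi-square of 112 to 1288 per degree of freedom).

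CPM is the count divided by the summed miRNA reads, times 1000000, so 1 CPM stood for 7.72 to 22.0 reads. Genotypes were compared over all miRNAs by edgeR 4.0.16 (quasi-likelihood, robust, TMM, filterByExpr at a minimum count of 10; R 4.3.3). Adjusted p-values are Benjamini-Hochberg values, called under 0.05. The SE was the log2 fold change divided by the root of its F statistic. Log2 ratios of the 5p to the 3p arm (0.5 added to each) were compared with limma 3.58.1 over all hairpins. Ratios between miRNAs (0.5 added to each) and shares were compared with two-sided exact permutation tests over all 35 splits. Alternatives were DESeq2 1.42.0, limma-voom, other scalings and filters, a block for the replicate number, and each library left out in turn. The edgeR and limma tests were also run on simulated counts, with the same spread for all miRNAs and with larger changes than those of the 4 arms. That run does not cover changes as small as theirs, and its outcome is not reported here.

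The members were proposed, and the lists and tests chosen, with earlier results of these data known. The naming rule took the members, their seed mates and closest sequences, the 5 most alike miRNAs of each 3p arm, the comparators, and at most 4 of the abundant tested members of each list. For the marker lists mainly the most abundant member is printed; names of list members at a low p were chosen after their values were seen. Positions and sequences are from RefSeq on GRCm38.p6 (mm10), which held 1675 of the 1966 names. The control RNAs added before ligation were not used here, so levels are relative to all miRNAs.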

Additional observations from a re-analysis of the deposited data

How the results depend on the processing

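Of 190 recomputed values, 173 kept their direction and their side of the threshold, and none of the 4 arms, the arm ratios or the ratios between miRNAs passed a threshold under any alternative run. The count of called miRNAs, 0 with edgeR and TMM, was 2 with library totals, 21 with DESeq2 and 13 without the filter on low counts, where 1302 miRNAs were tested; leaving out 1 library gave 0 to 1, the 1 being without ALAS12-KO replicate 2. No hairpin was called when any 1 library was left out.

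The log2 fold change of miR-222-5p, 0.06, was −0.129 with library totals and −0.0226 after upper-quartile scaling, and ran from −0.12 to 0.20 when 1 library was left out. It was below 0 without WT replicate 1 (−0.01) or 3 (−0.0022) and without ALAS12-KO replicate 1 (−0.12) or 2 (−0.05); the cause was not tested. The other arms stayed positive in all settings run, from 0.22 to 0.49 for miR-221-3p, 0.12 to 0.37 for miR-222-3p and 0.01 to 0.36 for miR-221-5p with 1 library left out. The ratio of miR-222-5p to miR-221-5p ran from −0.412 to 0.0877 when 1 library was left out, the positive value being without ALAS12-KO replicate 3; the cause was not tested. With 1 library left out the exact permutation tests have too few splits to reach 0.05. There the adjusted permutation p of the ratios to miR-126a-3p and miR-21a-5p ran from 0.0889 to 0.20. Stricter filtering at a mean CPM of 10 removed miR-222-5p, so it and the miR-222 arm ratio have no value there. With TMM-scaled CPM, 3 of the 5 miRNAs most alike to miR-222-3p stayed among the 5.

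The replicate numbers are shared by the genotypes, but same-numbered libraries did not deviate together (correlations of −0.02, −0.48 and 0.03 for numbers 1 to 3), and 0 of 6 libraries correlated best with its own number. With the replicate number as a block, edgeR called 0 miRNAs and limma 0 hairpins, the log2 fold change was 0.28 for miR-221-3p and 0.24 for miR-222-3p, and the arm ratios differed by −0.01 for miR-221 and −0.07 for miR-222. Depth limits the 5p arm of miR-222 most, with 23 to 74 reads per library.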
